A study of Homo sapiens with 16 samples.

Results

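The genes described here are the 10 core genes of the TRAIL and FAS death receptor pathway, out of 23459 genes in the count table. They were taken by name: the death receptors TNFRSF10A, TNFRSF10B and FAS, the decoy receptors TNFRSF10C and TNFRSF10D, the ligand TNFSF10 (TRAIL), the adaptor FADD, the initiator caspases CASP8 and CASP10, and the inhibitor CFLAR (FLIP). RNA was sequenced from IMR5-75 and Be(2)-C, established human neuroblastoma lines that are each clonal and carry amplified MYCN. Each line received both drugs (DAC+EPZ), DAC alone at 1 µM for 72 h, EPZ-6438 alone (EPZ) at 1 µM for 96 h, or the solvent DMSO, which gives 8 groups of 2 libraries. All groups were cultured tumour cells, and no untreated or normal cells are among the groups used here. The labels do not spell out DAC, an abbreviation commonly used for decitabine, which is incorporated into DNA and depletes DNA methyltransferases, and EPZ-6438 inhibits EZH2, which methylates histone H3.

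In this pathway a ligand such as TRAIL or FASL clusters its receptor, FADD binds the receptor's death domain, and caspase 8 or 10 is activated on FADD. The active caspases cleave executioner caspases and BID, which carries the signal to mitochondria. Decoy receptors bind TRAIL without a working death domain, and CFLAR resembles caspase 8 but blocks its activation. In neuroblastoma CASP8 and several TRAIL receptor genes are known as sites of promoter methylation and silencing.

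DNA methylation in mammals sits mainly on cytosines of CG pairs, so RefSeq windows that end 50 bases after a gene's start are shown for CFLAR, FAS and CASP8, which rose in IMR5-75, and for FADD, which was not called against DMSO. CASP10, TNFRSF10A, TNFRSF10B, TNFRSF10C and TNFRSF10D are not shown. The 300-base windows are from build GRCh38.p14, 5′ to 3′, in lower case with each CG in capitals. The CFLAR window is chr2:201118466-201118765 on the plus strand. The FAS window is chr10:88990548-88990847 on the plus strand. The CASP8 window is chr2:201233213-201233512 on the plus strand. The FADD window is chr11:70203046-70203345 on the plus strand.
CFLAR: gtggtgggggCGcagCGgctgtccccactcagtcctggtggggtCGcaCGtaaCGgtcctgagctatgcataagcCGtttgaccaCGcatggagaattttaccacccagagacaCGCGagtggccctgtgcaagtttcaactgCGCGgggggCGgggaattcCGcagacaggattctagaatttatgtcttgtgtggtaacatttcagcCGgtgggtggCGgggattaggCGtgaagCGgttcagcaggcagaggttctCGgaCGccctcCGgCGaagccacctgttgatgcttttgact
FAS: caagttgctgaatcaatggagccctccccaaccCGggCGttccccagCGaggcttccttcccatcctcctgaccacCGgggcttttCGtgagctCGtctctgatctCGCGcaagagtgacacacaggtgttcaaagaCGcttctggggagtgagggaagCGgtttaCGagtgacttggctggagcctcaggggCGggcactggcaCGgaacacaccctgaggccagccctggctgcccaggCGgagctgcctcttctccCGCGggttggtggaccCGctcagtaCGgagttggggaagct
CASP8: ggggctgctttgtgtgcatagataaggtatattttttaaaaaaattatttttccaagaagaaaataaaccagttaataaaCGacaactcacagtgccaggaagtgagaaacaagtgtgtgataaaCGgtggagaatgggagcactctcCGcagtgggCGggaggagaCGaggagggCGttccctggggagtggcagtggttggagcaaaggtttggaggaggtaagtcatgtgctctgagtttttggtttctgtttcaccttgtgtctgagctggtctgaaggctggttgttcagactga
FADD: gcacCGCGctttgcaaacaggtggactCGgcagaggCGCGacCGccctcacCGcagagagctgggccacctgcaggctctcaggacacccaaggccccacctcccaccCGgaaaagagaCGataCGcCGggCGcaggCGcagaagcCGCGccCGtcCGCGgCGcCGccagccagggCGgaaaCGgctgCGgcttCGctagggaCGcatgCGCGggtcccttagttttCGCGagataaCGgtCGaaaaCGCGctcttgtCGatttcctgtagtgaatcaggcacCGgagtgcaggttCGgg
The motif searched was CG, which reads the same on both strands. The 35116 windows of this length in the table held a median of 14 CG. The FADD window held 36, and 12.7% of all windows held at least as many. The CFLAR window held 21 (39.5% of windows held at least as many), the FAS window 18 (44.5%) and the CASP8 window 6 (66.3%). Other annotated starts gave 0, 1 and 22 CG for CFLAR, 14 and 22 for FAS, and 5 and 6 for CASP8, and the TNFSF10 window on chromosome 3 held 3. These counts are descriptions of the letters only. No methylation was measured in these libraries.

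The 16 libraries held 9539557 to 14032155 counts. Levels are CPM, counts scaled to library size with TMM factors. Changes are log2 ± SE from edgeR's quasi-likelihood fit of all 8 groups. The SE was derived as the absolute log2 change divided by the square root of the test's F, so it is approximate. A change was called where the Benjamini-Hochberg adjusted p over 15967 tested genes was below 0.05. Whether replicates are separate cultures is not in the labels, so the tests reflect library-to-library spread that may be technical. Intervals cover counting error only. A library is given as its treatment and replicate number (DMSO 1), within the line under discussion unless the line is named. The 8 noradrenergic neuroblastoma markers were present in both lines. In IMR5-75 they summed to 1073 to 1092 CPM after DAC+EPZ, 1123 to 1329 after DAC and 1097 to 1156 after EPZ, against 1343 to 1529 CPM with DMSO. The sums in Be(2)-C were 1507 to 1659 CPM after DAC+EPZ, 1501 to 1519 after DAC and 1412 to 1841 after EPZ, against 1809 to 1842 CPM with DMSO. The part of these marker levels in the results was not tested. Of the 10 genes, 9 passed the filter on low counts, TNFRSF10A, TNFRSF10C, TNFRSF10D and CASP10 only through groups where they were high, and TNFSF10 did not pass. TNFRSF10 genes are paralogs that may share reads. The strand setting of the counting is not given in the sources used here. Reads of CFLAR, FAS and TNFRSF10B therefore cannot be told from those of the opposite-strand genes CFLAR-AS1, ACTA2 and RHOBTB2. The same holds for TNFRSF10A (TNFRSF10A-AS1), CASP10, FADD and TNFSF10, whose annotated opposite-strand genes have no counts of their own here.

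Without drug the lines differed in the receptor and in the inhibitor. IMR5-75 cells had far more TNFRSF10B, the receptor DR5 that signals on TRAIL binding, and more FAS, while Be(2)-C cells had far more CFLAR. Of the 10 genes, 2 were higher and 3 lower in IMR5-75, where 32% of all tested genes were higher and 31.2% lower (63.2% called). These counts lie near the shares of all genes, so the differences are described gene by gene. Fewer cells expressing a gene and less RNA per cell cannot be told apart in bulk RNA.

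TNFRSF10B had 3695 and 3188 counts in the IMR5-75 DMSO libraries, against 50 and 65 in the Be(2)-C DMSO libraries. Its mean level was 270 ± 2.99 CPM in IMR5-75 and 5.25 ± 1.02 CPM in Be(2)-C (SD, n = 2 each), a difference of 5.68 ± 0.21 on the log2 scale (edgeR adjusted p = 8.65e-16). All libraries of IMR5-75 lay far above all of Be(2)-C. FAS had 67 and 53 counts in IMR5-75, against 5 and 10 in Be(2)-C (log2 2.76 ± 0.34, edgeR adjusted p = 3.23e-07). CFLAR had 4 counts in each IMR5-75 library, against 284 and 290 in Be(2)-C, which is 6.33 ± 0.27 lower on the log2 scale in IMR5-75 (edgeR adjusted p = 1.45e-14). CFLAR encodes the inhibitor of caspase 8 activation, and for it the 2 lines did not overlap in any treatment. TNFRSF10A, the receptor DR4, was at 0 in both IMR5-75 DMSO libraries and at 4 and 6 counts in Be(2)-C, so it was at least 3.87-fold lower in IMR5-75 (edgeR adjusted p = 0.00127), a bound of 1.81-fold without IMR5-75 DMSO 1 and 2.06-fold without IMR5-75 DMSO 2. FADD, which bridges receptor and caspase, was lower at 393 and 424 counts in IMR5-75 against 474 and 466 in Be(2)-C (log2 -0.41 ± 0.16, adjusted p = 0.0332). That call ended without Be(2)-C DMSO 1 (adjusted p = 0.0987), Be(2)-C DMSO 2 (0.0969) or IMR5-75 DMSO 1 (0.207). CASP8 averaged 1.26 CPM in IMR5-75 and 0.957 CPM in Be(2)-C and did not pass the test (log2 0.39 ± 0.50, adjusted p = 0.519).

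**Figure D1:**
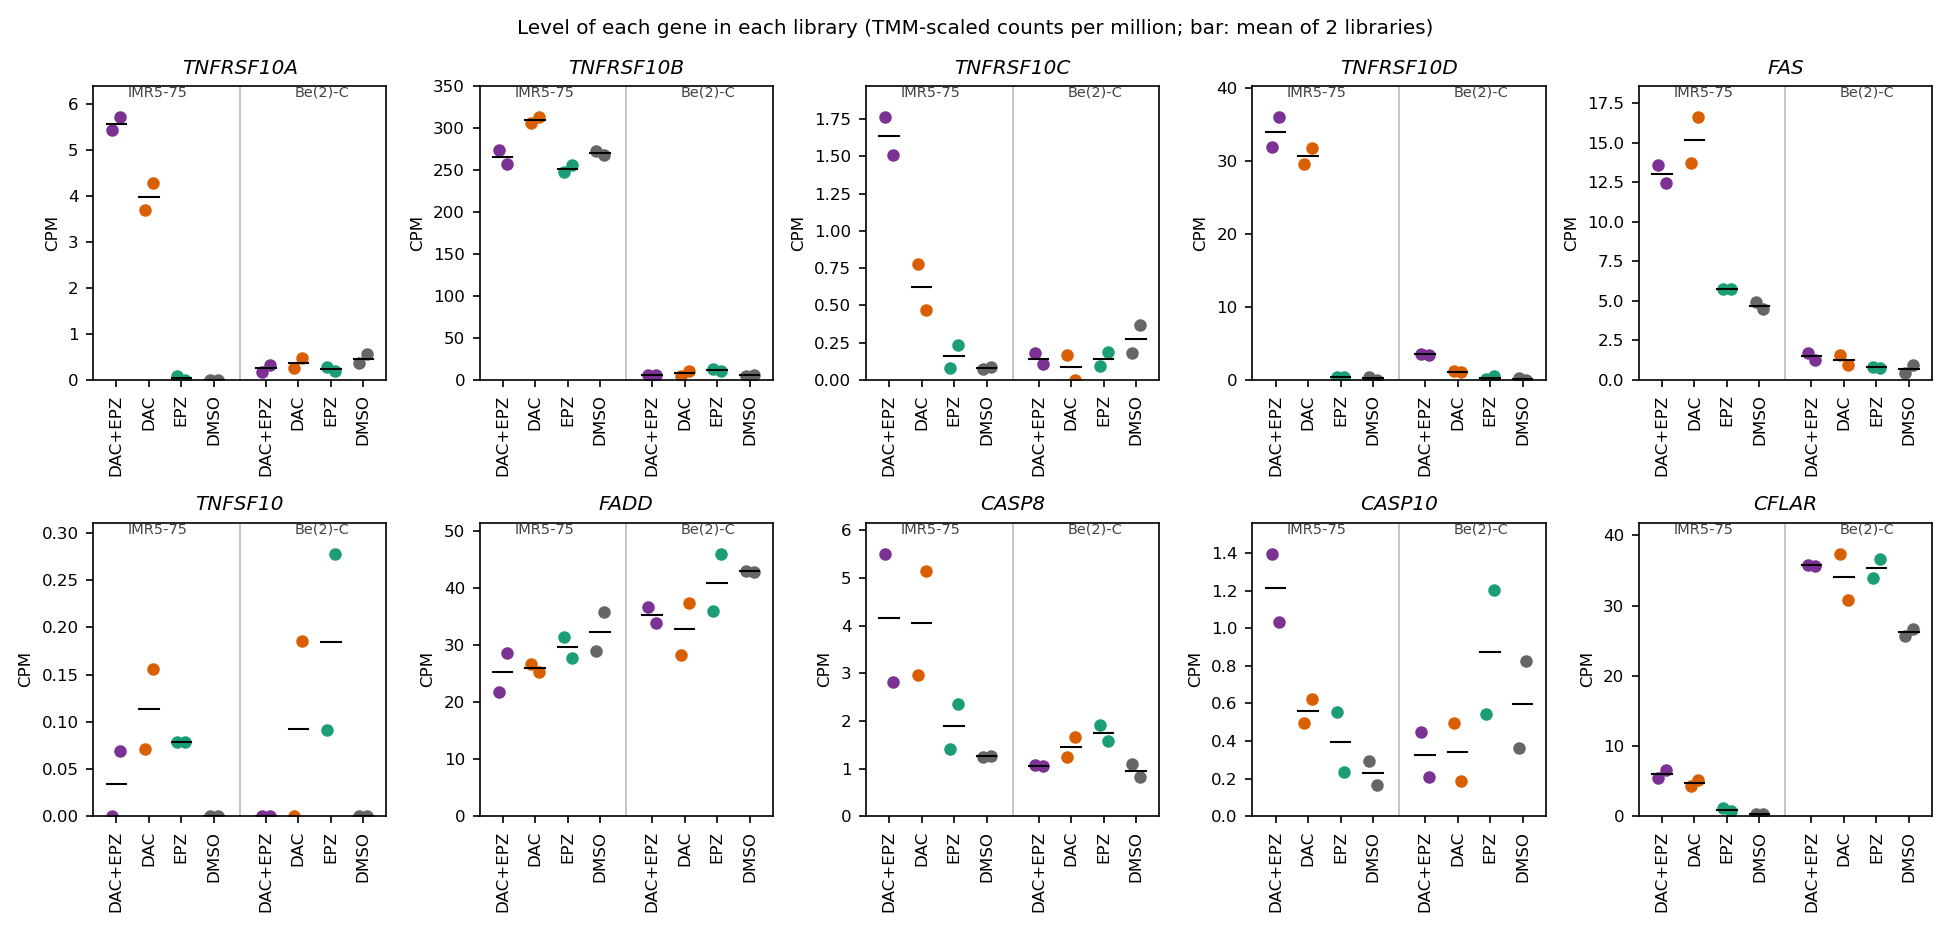
TMM-scaled CPM of the 10 genes in each of the 16 libraries (points) with the mean of each group of 2 (bar), IMR5-75 left of Be(2)-C in each panel. TNFRSF10A, TNFRSF10C, TNFRSF10D, FAS, CASP8 and CFLAR are higher after DAC or DAC+EPZ in IMR5-75, CFLAR is high in Be(2)-C in every group, and TNFRSF10B is high in IMR5-75 in every group.

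In IMR5-75 death receptors, decoys, caspase 8 and the caspase inhibitor were higher after DAC, alone or with EPZ. Of the 10 genes, 7 rose and 0 fell after DAC+EPZ, where 25.7% of all tested genes rose and 20.4% fell (46.2% called). After DAC alone 6 rose and 0 fell, where 19.9% of all tested genes rose and 13.8% fell (33.7% called). TNFRSF10A, TNFRSF10C, TNFRSF10D and CASP10 passed the low-count filter only through groups where they were high, so these counts are a description.

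Of the death receptors, TNFRSF10A had 74 and 83 counts after DAC+EPZ, 52 and 55 after DAC, 1 and 0 after EPZ and 0 in each DMSO library. It was at least 47.3-fold higher after DAC+EPZ and at least 33.7-fold higher after DAC, set against 3 counts over the DMSO group (edgeR adjusted p = 5.96e-09 and 6.01e-08). Without DMSO 1 the bounds were 22.1-fold for DAC+EPZ and 15.7-fold for DAC, and without DMSO 2 they were 25.2-fold and 18.0-fold. The DAC+EPZ libraries lay above the DAC libraries, and that difference was not called (log2 0.48 ± 0.26, adjusted p = 0.405). FAS, the receptor of FASL, had 185 and 181 counts after DAC+EPZ, 194 and 213 after DAC and 73 in each EPZ library, against 67 and 53 with DMSO. The DAC+EPZ change was 1.46 ± 0.21 (adjusted p = 7.11e-06) and the DAC change 1.68 ± 0.21 (adjusted p = 2.04e-06). The libraries that received DAC lay above all others for FAS. TNFRSF10B stayed between 248 and 313 CPM in the 8 IMR5-75 libraries and was not called (DAC+EPZ -0.03 ± 0.15, DAC 0.20 ± 0.15, EPZ -0.10 ± 0.15).

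Both decoys rose. TNFRSF10D, whose intracellular death domain is truncated, had 435 and 524 counts after DAC+EPZ and 419 and 408 after DAC and 5 in each EPZ library, against 6 and 0 with DMSO. Its change was 7.11 ± 0.38 after DAC+EPZ (edgeR adjusted p = 9.78e-12) and 6.97 ± 0.39 after DAC (2.08e-11). All 6 DMSO counts came from DMSO 1: without that library the increase was at least 135-fold after DAC+EPZ and 122-fold after DAC, and without DMSO 2 the log2 changes were 6.21 and 6.08. TNFRSF10C, which is anchored without a cytoplasmic domain, had 24 and 22 counts after DAC+EPZ and 11 and 6 after DAC, against 1 in each DMSO library. Its ratio to DMSO was 20.8 (interval 5.43 to 177, adjusted p = 5.27e-05) after DAC+EPZ and 8.03 (1.91 to 71.7, adjusted p = 0.0136) after DAC. The DAC call ended without DMSO 1 (0.0869), DMSO 2 (0.0672) or DAC 1 (0.110), and by the DESeq2 Wald test (0.0694).

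CASP8, the initiator caspase that FADD recruits, had 75 and 41 counts after DAC+EPZ, 42 and 66 after DAC and 18 and 30 after EPZ, against 17 and 15 with DMSO. The changes were 1.71 ± 0.38 for DAC+EPZ (adjusted p = 0.000878) and 1.67 ± 0.38 for DAC (0.0019). Replicates of the DAC-treated groups differed widely, and all 4 lay above both DMSO libraries. CASP10, which can be recruited to FADD like CASP8, had 19 and 15 counts after DAC+EPZ against 4 and 2 with DMSO (log2 2.31 ± 0.63, adjusted p = 0.00512), and the call ended without DMSO 2 (0.0511). CFLAR had 74 and 95 counts after DAC+EPZ, 61 and 67 after DAC and 14 and 9 after EPZ, against 4 in each DMSO library. Its changes were 4.21 ± 0.33 after DAC+EPZ (adjusted p = 2.27e-09) and 3.88 ± 0.34 after DAC (2.37e-08), while the EPZ change was not called (adjusted p = 0.124). The CFLAR level was 5.98 ± 0.777 CPM in IMR5-75 DAC+EPZ against 35.7 ± 0.0971 in Be(2)-C DAC+EPZ (SD, n = 2 each). FADD was not called (DAC+EPZ -0.36 ± 0.16, adjusted p = 0.0821), and its DAC+EPZ change was -0.53 without DAC+EPZ 2.

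For EPZ alone in IMR5-75, by edgeR 0 of the 10 were called, 1 at an unadjusted p under 0.05, and DESeq2 called 0, beside 1.98% of all tested genes called by edgeR. TNFSF10, the ligand, had 12 counts over all 16 libraries, with 0 to 3 in any library.

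**Figure D2:**
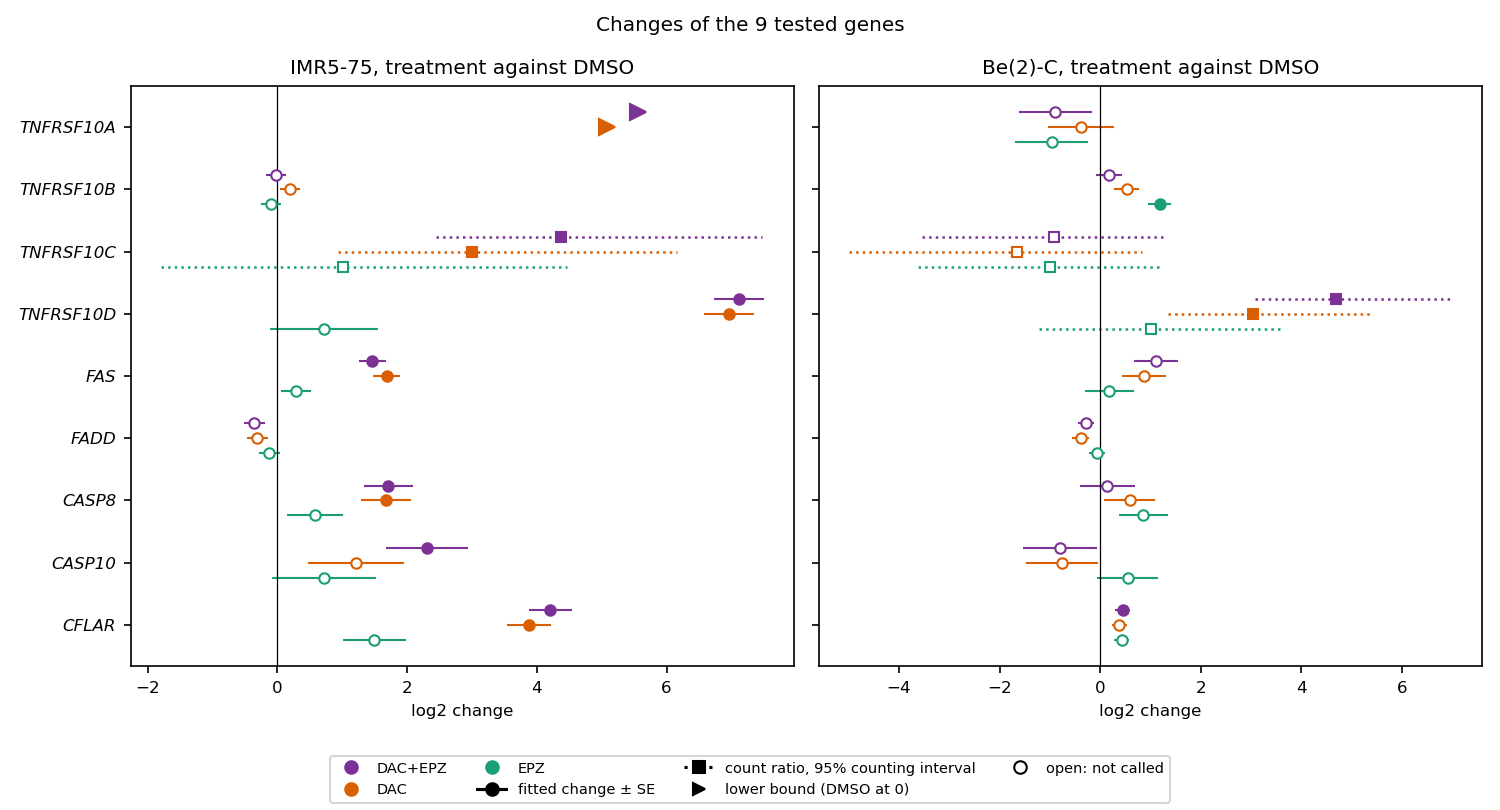
Log2 change of each tested gene against same-line DMSO, with fitted changes ± SE (circles), count ratios with counting intervals where a group held 1 to 3 counts (squares) and lower bounds where DMSO was at 0 (triangles). In IMR5-75 filled DAC and DAC+EPZ symbols lie to the right for TNFRSF10A, TNFRSF10C, TNFRSF10D, FAS, CASP8 and CFLAR, and TNFRSF10B and FADD lie near 0.

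Markers of other cell types moved with these groups, and their part in the result was not tested. The 8 haematopoietic markers, all of them in the table, summed to 9.76 to 10.7 CPM after DAC+EPZ, 8.0 to 9.28 after DAC and 4.72 to 5.99 after EPZ, against 4.87 to 5.13 CPM with DMSO in IMR5-75. CD3E and LYZ were at 0 with DMSO, and CD3D was at 0 after DAC. The 6 fibroblast or mesenchymal markers summed to 537 to 572 CPM after DAC+EPZ, 342 to 367 after DAC and 248 to 262 after EPZ, against 204 to 206 CPM with DMSO, with no gene of this list at 0. After DAC+EPZ COL1A1, COL3A1, DCN and LUM were called higher and PDGFRA lower. PTPRC, the leukocyte CD45 gene, had 36 and 24 counts after DAC+EPZ and 14 and 24 after DAC, against 2 and 3 with DMSO. The haematopoietic sum in Be(2)-C stayed between 3.33 and 6.67 CPM. Its mesenchymal sum was 70.7 to 83.6 CPM after DAC+EPZ, 63.2 to 66.3 after DAC and 36.0 to 40.3 after EPZ, against 70.0 to 74.4 CPM with DMSO. COL3A1, LUM and PDGFRA were called higher and DCN lower after DAC+EPZ there, so called changes ran in both directions within the list. The 4 epithelial markers summed to 3.52 to 3.71 CPM after DAC+EPZ, 1.91 to 2.34 after DAC and 1.73 to 3.15 after EPZ, against 0.925 to 1.33 CPM with DMSO in IMR5-75. Of the 2 tested, EPCAM was higher and KRT19 lower after DAC+EPZ, with KRT19 at 0 there, and the KRT19 call ended without DMSO 1. The epithelial sum in Be(2)-C was 19.7 to 21.6 CPM after DAC+EPZ, 16.3 to 17.9 after DAC and 4.81 to 5.81 after EPZ, against 4.22 to 6.89 CPM with DMSO. Both tested markers were higher after DAC+EPZ, and 1 of them without DMSO 2 or DAC+EPZ 1.

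In Be(2)-C the decoy TNFRSF10D rose after DAC, TNFRSF10B rose after EPZ, and TNFRSF10D and CFLAR rose after DAC+EPZ. That is 2 of the 10 genes after DAC+EPZ, where 13.2% of all tested genes rose (23.7% called). It is 1 of the 10 after DAC, where 3.73% rose (6.7% called), and 1 after EPZ, where 5.35% rose (10.2% called). TNFRSF10D passed the low-count filter only through groups that received DAC, so these counts are a description. TNFRSF10D had 40 and 33 counts after DAC+EPZ, 15 and 11 after DAC and 1 and 5 after EPZ, against 3 and 0 with DMSO. Its ratio was 25.7 (interval 8.45 to 127, adjusted p = 1.45e-05) after DAC+EPZ and 8.28 (2.54 to 42.7, adjusted p = 0.0262) after DAC. Without DMSO 2 the ratios were 12.9 and 4.17, and without DMSO 1 the increases were at least 12.8-fold and 4.11-fold. The DAC call ended without DMSO 2 (0.222), DAC 1 (0.141) or DAC 2 (0.0602).

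TNFRSF10B had 147 and 114 counts after EPZ, against 50 and 65 with DMSO, a change of 1.19 ± 0.23 (adjusted p = 0.00183) that lost its call without DMSO 1 (0.0616). It had 68 and 55 counts after DAC+EPZ, so it was 1.01 ± 0.23 lower than with EPZ alone (adjusted p = 0.0112, lost without DAC+EPZ 1, DAC+EPZ 2 or EPZ 1 at 0.0829, 0.11 and 0.0919). After DAC TNFRSF10B had 61 and 111 counts (log2 0.53 ± 0.24, not called, edgeR adjusted p = 0.208), and this change was 0.95 without DAC 1. DAC+EPZ against DAC was -0.35 ± 0.24 (not called), and -0.80 without DAC 1. The interaction of the drugs on TNFRSF10B was -1.54 ± 0.33 and was not called (adjusted p = 0.0556). It was called with no filter on low counts (4.20e-05), by DESeq2 (0.000395), without DAC 1 (0.000601) and without EPZ 2 (0.0281). CFLAR had 402 and 340 counts after DAC+EPZ, against 284 and 290 with DMSO (log2 0.45 ± 0.15, adjusted p = 0.0305), and the call ended with no filter (0.0599) and without any of the 4 libraries (0.112 to 0.188). FAS, at 19 and 12 counts after DAC+EPZ against 5 and 10 with DMSO, missed the threshold (log2 1.11 ± 0.43, adjusted p = 0.0654). CASP8 held 9 to 21 counts in every Be(2)-C library and was not called.

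Both drugs were also set against each drug alone. TNFRSF10A, TNFRSF10C, TNFRSF10D and CASP10 passed the low-count filter only through groups where they were high, so the counts are a description. In IMR5-75, DAC+EPZ against DAC gave 0 of the 10 called by edgeR, 2 at an unadjusted p under 0.05 and 0 by DESeq2 (1.94% of all tested genes called by edgeR). DAC+EPZ against EPZ in IMR5-75 gave 7 higher, where 20.7% of all tested genes were higher (37.6% called), and 5 to 6 when any of the 4 libraries was left out. CASP8 was among them at 1.13 ± 0.35 (adjusted p = 0.0156), a call that ended without DAC+EPZ 1 (0.272) or EPZ 1 (0.148). CASP10 was higher by 1.59 ± 0.57 (adjusted p = 0.0328), and that ended by DESeq2 (0.116) and without DAC+EPZ 1 (0.147), DAC+EPZ 2 (0.0551) or EPZ 2 (0.237). In Be(2)-C, TNFRSF10D was 1.63 ± 0.40 higher after DAC+EPZ than after DAC (adjusted p = 0.0175, against 5.44% of tested genes called), and this ended without any of the 4 libraries (0.0864 to 0.142). DAC+EPZ against EPZ in Be(2)-C called 2 of the 10 (4.21% of tested genes), TNFRSF10D higher by 3.63 ± 0.54 and TNFRSF10B lower. The TNFRSF10D difference was 5.12 without EPZ 2 and 2.90 without EPZ 1. The interaction gave 0 of the 10 by edgeR in each line (0.257% of tested genes in Be(2)-C and 0.0251% in IMR5-75), with 1 at an unadjusted p under 0.05 in each, and DESeq2 called 1 in Be(2)-C and 0 in IMR5-75.

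The drug responses of the lines were tested against each other. Of the 10 genes, 2 differed after DAC (6.19% of tested genes called), 1 after EPZ (1.19%) and 4 after DAC+EPZ (11.1%). TNFRSF10A, TNFRSF10C and CASP10 passed the low-count filter only through IMR5-75 groups where they were high, so these counts are a description. In Be(2)-C TNFRSF10A held 10 counts over both DMSO libraries and 5 after DAC+EPZ, and TNFRSF10C 6 and 3. CFLAR rose more in IMR5-75 by 3.49 ± 0.39 after DAC (adjusted p = 2.79e-06) and 3.76 ± 0.38 after DAC+EPZ (4.68e-07). TNFRSF10A differed after DAC (8.92e-05) and DAC+EPZ (2.17e-05), with IMR5-75 at 0 in DMSO, so no fitted size is given. The EPZ response of TNFRSF10B was lower in IMR5-75 (log2 difference -1.29 ± 0.28, adjusted p = 0.0209), and the call ended without 6 of the 8 libraries: Be(2)-C DMSO 1 (0.209), Be(2)-C DMSO 2 (0.056), Be(2)-C EPZ 1 (0.102), IMR5-75 DMSO 2 (0.0511), IMR5-75 EPZ 1 (0.0964) and IMR5-75 EPZ 2 (0.0645). TNFRSF10C (adjusted p = 0.0128, lost without Be(2)-C DMSO 2 at 0.159) and CASP10 (log2 3.11 ± 0.99, adjusted p = 0.0462) also differed after DAC+EPZ. The CASP10 call ended by DESeq2 (0.101), with the replicate block (0.0572) and without each library but Be(2)-C DMSO 1 (0.0625 to 0.304). The DAC difference for FAS was not called (0.81 ± 0.51). That for TNFRSF10D was not called by edgeR (adjusted p = 0.13), but it was called by DESeq2 (0.00702), with no filter on low counts (0.0385) and without IMR5-75 DMSO 1 (0.0178), so this call turned on the setting. TNFRSF10C was called after DAC without Be(2)-C DAC 1 (0.0404).

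The make-up of TRAIL receptor RNA differed between the DAC-treated and DMSO libraries in IMR5-75, as shares given without a test. Per kilobase of exon, decoys held 12.9 and 14.7% of the 4 receptors' summed CPM per kb in IMR5-75 after DAC+EPZ and 10.5 and 10.7% after DAC and 0.262 and 0.401% after EPZ, against 0.255 and 0.0756% with DMSO. TNFRSF10B still held 82.5% or more of the sum in every IMR5-75 library. Decoys in Be(2)-C held 42.1 and 40.8% after DAC+EPZ, 25.5 and 9.80% after DAC and 2.31 and 8.37% after EPZ, against 12.9 and 11.5% with DMSO, where the receptor sum was low (1.41 and 1.86 CPM per kb, against 65.9 and 64.7 in IMR5-75 DMSO). In Be(2)-C the 2 DAC libraries lay on both sides of the DMSO libraries, and these shares rest on few counts.

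**Figure D3:**
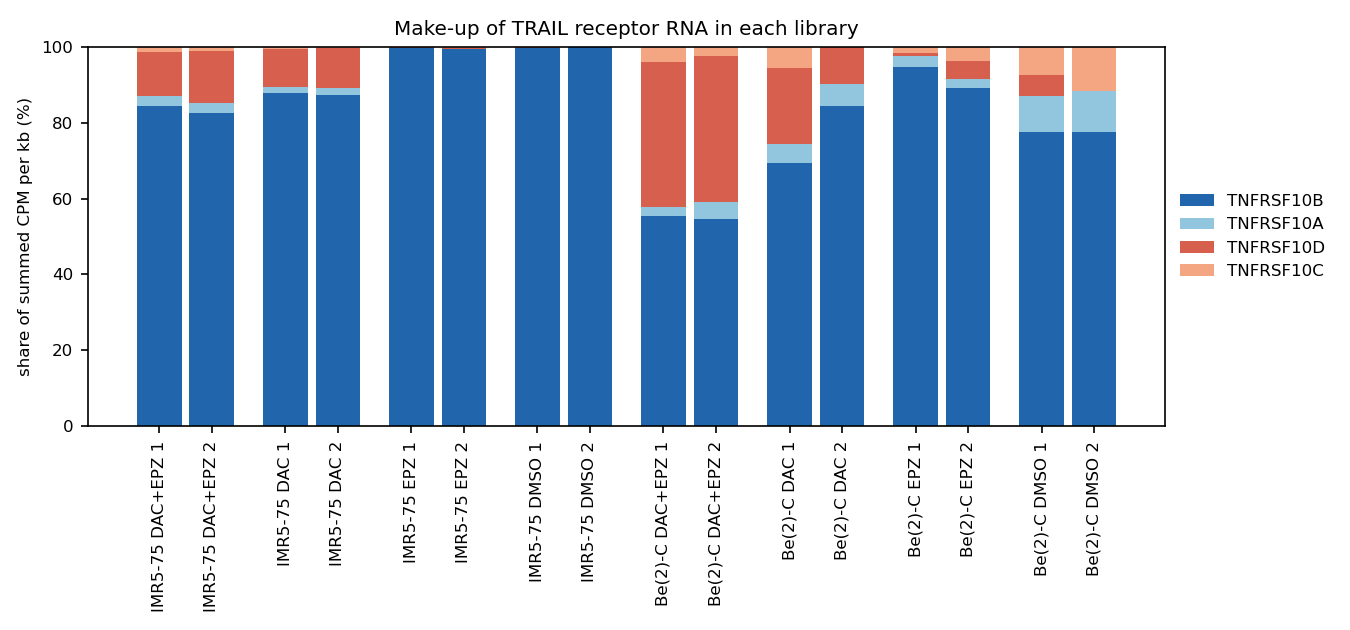
Share of each TRAIL receptor in the summed CPM per kb of exon of the 4 receptors, one bar per library, IMR5-75 left of Be(2)-C. Decoys together held 10.5 to 14.7% of the sum in the DAC+EPZ and DAC libraries of IMR5-75 and 40.8 to 42.1% in Be(2)-C DAC+EPZ, while the Be(2)-C DAC libraries, at 25.5 and 9.80%, lie on both sides of DMSO.

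Neighbouring genes were looked at beside the 2 gene clusters. The TNFRSF10 genes sit together on chromosome 8 and CFLAR, CASP10 and CASP8 together on chromosome 2, in RefSeq order of another build used for order only. After DAC in IMR5-75 the neighbours EGR3 (log2 -0.71), RHOBTB2 (0.22), CHMP7 (-0.13) and R3HCC1 (-0.16) were not called, and PEBP4 was not tested. Neither were ORC2 (-0.20), HYCC2 (-0.21), NDUFB3 (-0.30), FLACC1 (0.67), TRAK2 (0.03) and STRADB (0.02) called. LOXL2, beyond R3HCC1, was lower by 0.99 (adjusted p = 0.000827). More neighbours were called in IMR5-75 after DAC+EPZ, where more of all tested genes were called too (46.2%, against 33.7% after DAC). RHOBTB2 was higher by 0.43 (edgeR adjusted p = 0.0481), and NDUFB3 (-0.39, 0.0174), ORC2 (-0.42, 0.0119) and LOXL2 (-0.62, 0.0145) were lower. The decoy TNFRSF10D lies between TNFRSF10C and TNFRSF10A, and all 3 rose.

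**Figure D4:**
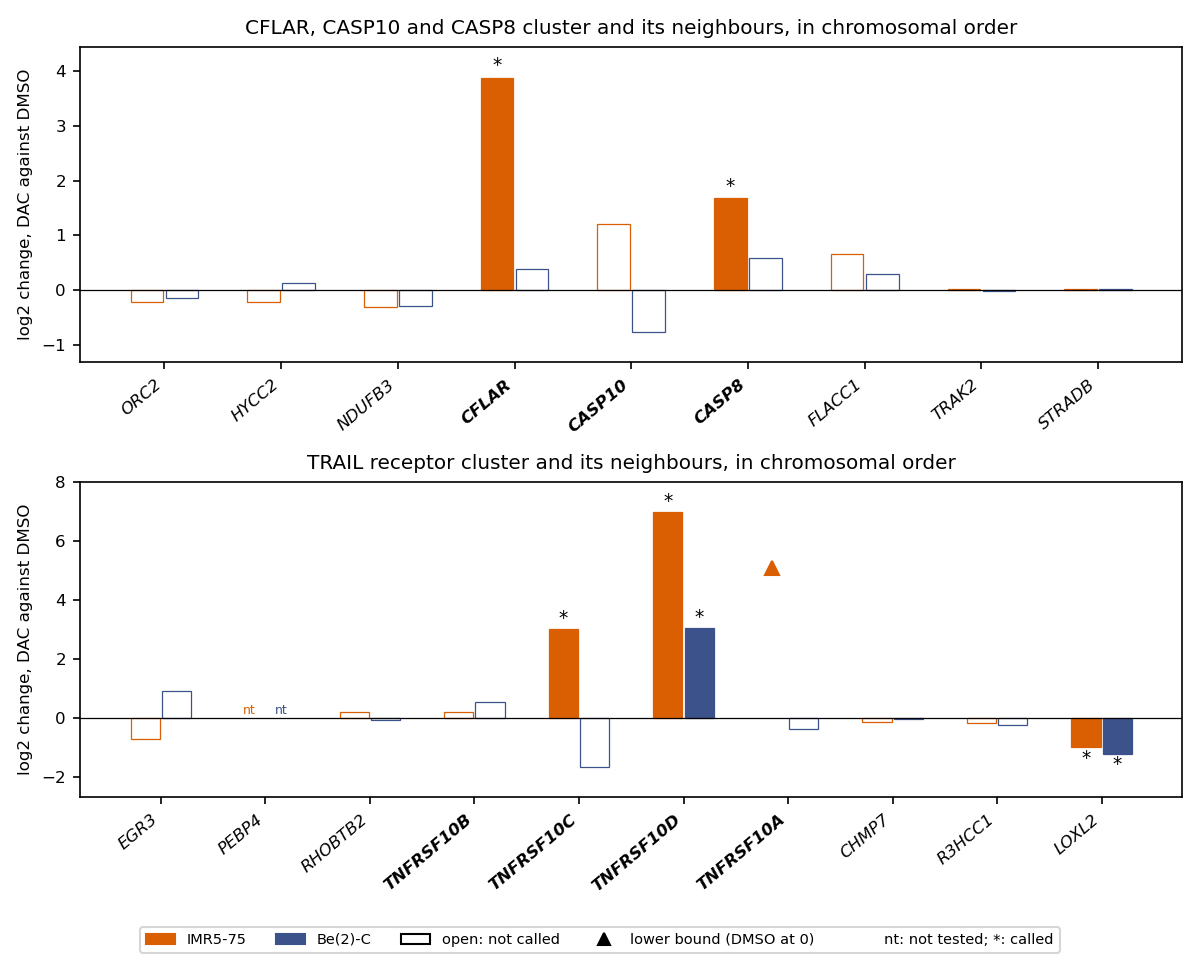
Log2 change after DAC against DMSO for the genes of the chromosome 2 and chromosome 8 clusters and their neighbours, in chromosomal order and not to scale, with filled bars and asterisks for called genes, and a triangle for the TNFRSF10A lower bound. The filled IMR5-75 bars are CFLAR, CASP8, TNFRSF10C, TNFRSF10D and LOXL2, the last pointing down.

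Counts of called genes in 4 lists of the wider pathway are given beside the shares of all tested genes, with no test of the lists. In IMR5-75, 25.7% of all tested genes rose and 20.4% fell after DAC+EPZ, and 19.9% rose and 13.8% fell after DAC. After DAC+EPZ in Be(2)-C, 13.2% rose and 23.7% were called in either direction. Among the 13 other death receptors, ligands and decoys, of which 8 were tested, 4 rose after DAC+EPZ in IMR5-75 and 2 after DAC, and 0 fell in either. The DAC count was 4 without DAC 2. With 8 genes, the DAC count is near the share of all genes. NGFR, the p75 neurotrophin receptor, had 274 and 293 counts after DAC+EPZ and 214 and 150 after DAC, against 24 and 66 with DMSO (log2 2.49 ± 0.28 and 1.91 ± 0.29), changes of 3.48 and 2.91 without DMSO 2, and the DAC change was 1.29 without DMSO 1. EDA2R, a receptor of the ectodysplasin family, rose by 0.99 ± 0.20 after DAC+EPZ and 1.23 ± 0.19 after DAC. NGFR in Be(2)-C rose by 4.10 ± 0.32 after DAC+EPZ, 2.10 ± 0.36 after DAC and 2.17 ± 0.36 after EPZ (adjusted p = 1.54e-08, 0.000962 and 0.00044). TNFRSF25 rose after DAC+EPZ (log2 1.69 ± 0.49, adjusted p = 0.0162), which ended by DESeq2 (0.0572) and without any of the 4 libraries (0.0619 to 0.12), so the Be(2)-C count of 2 was 1 then.

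Of 16 adaptors and complex proteins, 15 were tested. Over all tested genes in IMR5-75, 25.7% rose and 20.4% fell after DAC+EPZ, and 19.9% and 13.8% after DAC. In Be(2)-C 23.7% of all tested genes were called after DAC+EPZ, and 13.2% rose. After DAC+EPZ in IMR5-75, 6 rose and 5 fell, with TRAF2, a ubiquitin ligase adaptor, lower by 0.98 ± 0.14 (adjusted p = 8.64e-06) and CASP8AP2 lower by 1.05 ± 0.16 (1.37e-05). After DAC 3 rose and 5 fell, TRAF2 by -0.88 ± 0.14 and CYLD, a deubiquitinase, by 0.76 ± 0.16; the fallers were 3 without DMSO 1, DMSO 2 or DAC 2. In Be(2)-C, TRAF2 (-0.72 ± 0.14) and PEA15 (-0.58 ± 0.13), a death effector domain protein, fell after DAC+EPZ, among 1 that rose and 4 that fell. The riser was lost without any of the 4 libraries.

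Of 24 genes of the mitochondrial arm and the executioner caspases, 23 were tested. After DAC+EPZ in IMR5-75, 6 rose and 6 fell, and the fallers were 3 without DMSO 1 or DAC+EPZ 2. These counts lie near the shares of all genes. BBC3 (PUMA) rose by 2.19 ± 0.20 and BMF by 1.90 ± 0.16, both BH3-only genes that antagonise BCL2 proteins. After DAC 4 rose and 4 fell (BBC3 2.03 ± 0.20, BMF 1.41 ± 0.17), with 2 and 1 without DMSO 1 and 2 and 2 without DAC 1. After EPZ in IMR5-75, 1.98% of all tested genes were called. In Be(2)-C 23.7% of all tested genes were called after DAC+EPZ and 13.2% rose, and the counts of this list lie near those shares. BMF rose in Be(2)-C by 2.43 ± 0.17 after DAC+EPZ and 1.45 ± 0.18 after DAC. BCL2 rose by 0.78 ± 0.13 after DAC+EPZ and 0.78 ± 0.13 after EPZ, and CASP6, an executioner caspase, rose after EPZ (18 and 18 counts against 3 and 4, log2 2.33 ± 0.43). The Be(2)-C DAC+EPZ list held 4 that rose and 2 that fell, with 1 faller without DMSO 1 or DMSO 2 and 0 without DAC+EPZ 2. BMF after EPZ was the only called gene of the list in IMR5-75 (log2 0.72 ± 0.17, adjusted p = 0.0322), and that call ended without any of the 4 libraries (0.0655 to 0.29) and with the line fitted alone (0.0565).

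Of 13 regulators known to act on these genes, all tested, 4 rose and 3 fell after DAC+EPZ in IMR5-75. These counts are near the shares of all tested genes, where 25.7% rose and 20.4% fell. FOXO3, a forkhead factor that acts on death ligand genes, rose by 1.05 ± 0.13 (adjusted p = 9.11e-07). MYC had 27 and 31 counts after DAC+EPZ against 3 and 1 with DMSO (log2 3.63 ± 0.60), and 4.50 without DMSO 1. After DAC FOXO3 rose by 0.74 ± 0.13, and MYCN fell by 0.52 on the log2 scale (adjusted p = 0.00765), a call that ended without DMSO 2 (0.0714) or DAC 2 (0.107). FOXO3 in Be(2)-C rose by 0.72 ± 0.12 after DAC+EPZ, and FOXO1 rose by 2.14 ± 0.53, a call that ended without DMSO 2 (0.0538) or DAC+EPZ 1 (0.0685). IRF1 rose after DAC (log2 0.99 ± 0.27, adjusted p = 0.028), and that ended without DMSO 1 (0.0644), DMSO 2 (0.255) or DAC 2 (0.215).

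The lines also differed in these lists without drug. EDA2R had 86 and 64 counts in IMR5-75 DMSO, against 0 in both Be(2)-C DMSO libraries (at least 43.1-fold higher), and TNFRSF1A was 2.77 ± 0.27 higher. CASP6 had 172 and 169 counts in IMR5-75, against 3 and 4 in Be(2)-C (log2 5.35 ± 0.29). MLKL, the pore protein of necroptosis, had 1 count in IMR5-75 over both libraries against 45 in Be(2)-C (ratio 0.0191, interval 0.000474 to 0.112), and the call held without any 1 of the 4 libraries (adjusted p = 7.17e-06 to 8.87e-05). FAIM2, an inhibitor of FAS signalling, was lower in IMR5-75 (log2 -3.99 ± 0.31), at -5.31 without IMR5-75 DMSO 1 and -3.37 without IMR5-75 DMSO 2. MCL1 (1.23 ± 0.11) and FOXO1 (3.90 ± 0.41) were higher and MYCN (-1.48 ± 0.15) lower. Of the genes of the drugs' targets, EZH2 (0.95 ± 0.10) and DNMT3B (1.21 ± 0.14) were higher in IMR5-75. After DAC+EPZ, DNMT1, EED, EZH2 and SUZ12 were called lower in both lines. Of all tested genes 20.4% fell in IMR5-75, and 23.7% were called in Be(2)-C. The same genes were called lower after DAC in IMR5-75 (DNMT1 -0.45, and -0.37 without DAC 2). In Be(2)-C DNMT1 (-0.44, and -0.26 without EPZ 2) and EZH2 (-0.57) were called lower after EPZ. After DAC+EPZ in IMR5-75 SUZ12 changed by -0.76 ± 0.13 and DNMT1 by -0.69 ± 0.13. After DAC+EPZ in Be(2)-C EZH2 changed by -0.71 ± 0.11 and DNMT1 by -0.52 ± 0.13 (-0.45 without DAC+EPZ 1).

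Over the 16 libraries the genes whose log2 CPM ran most like TNFRSF10D were DDX4 (Pearson r = 0.983), PIWIL2 (0.971) and STK31 (0.966). For CFLAR they were ZNF253 (0.997), CCDC144B (0.995) and LOC286467 (0.994), and for TNFRSF10A ZYG11A (0.959), ZBTB7B (0.953) and DDB2 (0.944). These are descriptions over libraries that share line and treatment, with no test.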

How the data were processed

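Gene counts per library were deposited by the authors as raw whole numbers, with one column for each of the 16 libraries. Per the submitters' processing notes the tools were TopHat2 2.0.5, HTSeq 0.5.3p9 and DESeq2, with build hg19. Neither the annotation nor the strand setting is given in these sources. RNA was depleted of ribosomal RNA and libraries were stranded and single-end, per the labels' protocols.

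These counts were tested with edgeR 4.0.16 in R 4.3.3 (filterByExpr, TMM, quasi-likelihood fit of 8 groups, 8 residual degrees of freedom, Benjamini-Hochberg over 15967 genes, called under 0.05) and checked on simulated data. Of the 10 genes 9 were tested. Groups at 0 give bounds against 3 counts over the group, and groups of 1 to 3 counts give ratios with exact binomial 95% intervals. Levels per kilobase use GENCODE v29 exon unions. The genes, the pathway lists and the rules were chosen with earlier results of these data known. All 10 genes are named, and from each pathway list the 2 called genes with the smallest adjusted p in each treatment comparison and between the lines under DMSO. For the 3 of the 10 genes with the smallest adjusted p, the 3 tested genes of highest Pearson r (mean log2 CPM at least 1) are named. Alternatives were DESeq2 size factors, no filter, the DESeq2 1.42.0 Wald test, a replicate block, a separate fit per line, and fits without each library in turn.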

Additional observations from a re-analysis of the deposited data

Results flagged for a closer look

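Drug responses that differed between IMR5-75 and Be(2)-C, by edgeR's test of the difference between the lines' changes against DMSO, were listed for a closer look. CFLAR rose more in IMR5-75 than in Be(2)-C after DAC (adjusted p = 2.79e-06) and after DAC+EPZ (adjusted p = 4.68e-07). TNFRSF10A rose in IMR5-75, where DMSO was at 0, and not in Be(2)-C, after DAC (adjusted p = 8.92e-05) and after DAC+EPZ (adjusted p = 2.17e-05). TNFRSF10C differed after DAC+EPZ (adjusted p = 0.0128), from 46 counts in IMR5-75 DAC+EPZ against 2 in IMR5-75 DMSO. CASP10 differed after DAC+EPZ (adjusted p = 0.0462). TNFRSF10A, TNFRSF10C and CASP10 passed the low-count filter only through IMR5-75 groups where they were high. TNFRSF10B differed after EPZ (adjusted p = 0.0209), with the rise in Be(2)-C.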

How the results depend on the processing

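The number of the 10 genes called was unchanged by DESeq2 size factors, and these scalings moved the median of all genes by under 0.1 log2. With no filter on low counts Be(2)-C DAC+EPZ against DMSO called 1 gene, the Be(2)-C interaction 1 and the DAC difference between lines 3. By DESeq2 the Be(2)-C interaction called 1, IMR5-75 DAC 5, IMR5-75 DAC+EPZ against EPZ 6, and the DAC and DAC+EPZ differences between lines 3 each. Leaving out each library gave 0 to 1 for Be(2)-C DAC, EPZ, DAC+EPZ against DAC, the interaction and the EPZ difference between lines, 1 for Be(2)-C DAC+EPZ against DMSO, 1 to 2 for DAC+EPZ against EPZ, and 2 to 4 for the DAC+EPZ and 2 to 3 for the DAC difference between lines. In IMR5-75 leaving out a library also moved the number for DAC, DAC+EPZ against DMSO and DAC+EPZ against EPZ. The number for the lines compared under DMSO moved as well. Without DAC+EPZ 2 the FADD change against DMSO was -0.53, downward where the called genes rose. The NGFR difference between lines under DMSO ran from -0.0449 (adjusted p = 0.934, without IMR5-75 DMSO 2) to 1.57 (without IMR5-75 DMSO 1). Over all genes, IMR5-75 EPZ against DMSO called 316 genes, 740 with no filter and 211 with the line fitted alone, and the IMR5-75 interaction called 4, then 84 with no filter, 14 by DESeq2 and 1 with the line alone. The IMR5-75 DAC+EPZ against DAC count was 309, then 541 with no filter and 164 with the line alone. The Be(2)-C interaction called 41, and 109 with no filter. The EPZ difference between lines called 190, then 425 with no filter and 292 by DESeq2. The causes were not tested. Low counts limit TNFRSF10A, TNFRSF10C, TNFRSF10D and CASP10 in DMSO, where few reads decide a change.

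The difference in gene levels between a group's replicates, taken in number order, was correlated between groups. Over 28 pairs of groups these correlations ran from -0.507 to 0.492, with 10 over 0.1. The signs were mixed, so the replicate numbers did not pair the samples in the same way across groups. Whether libraries shared a batch under another numbering was not tested. With a replicate block the numbers called were the same but for the DAC+EPZ difference between lines, which was 3 rather than 4, losing CASP10 (adjusted p = 0.0572).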
